A study of Homo sapiens with 4 samples.

Results

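The SLC25 carriers were taken as every row of the expression table whose gene symbol is SLC25A followed by a number. The cells were MM.1S, an established line of human multiple myeloma. The rule gave 45 genes of the 16057 in the table, and 39 of them reached a mean of 1 TPM (a level corrected for transcript length and scaled to one total per library) over the 4 libraries and were tested. JG342 inhibits the chaperone HSP70 allosterically. It was given at 350 nM for 26 h, and control cells had the solvent DMSO for the same time. There were 2 libraries per treatment, numbered 1 and 2, described as biological duplicates of this single line. The comparison asks which transcripts move when HSP70 is inhibited, in a study whose title points to protein homeostasis in mitochondria.

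SLC25 proteins are built from repeated pairs of membrane helices, and most sit in the inner mitochondrial membrane. They are made in the cytosol, handed by HSP70 and HSP90 to the import receptor TOM70 and inserted by the TIM22 complex. Each carrier moves a small molecule across a membrane that is otherwise closed to it: adenine nucleotides for energy supply, citrate for fatty acid and sterol synthesis, amino acids, cofactors, iron or glutathione. Bulk RNA cannot tell fewer cells from less RNA per cell, and RNA levels do not measure the carrier proteins.

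The libraries summed to between 994463 and 994718 TPM, and 1118 to 1418 genes were listed at 0. TPM keeps no read depth, so the depth is unknown and no counting interval is given. All 9 plasma cell and myeloma markers examined were present, from CD38 at 22.04 to 29.19 TPM to MZB1 at 1442.11 to 1566.09 TPM. CD14, EPCAM, CSF1R, COL1A1, COL1A2, DCN and CD2 stayed under 1 TPM in every library, while the myeloid marker LYZ stood at 36.96 to 46.16 TPM. The T cell marker CD3E had 3.21 to 7.7 TPM, and the epithelial markers KRT8 and KRT18 had 2.27 to 5.66 and 1.24 to 2.9 TPM. The part of such RNA in the carrier results was not tested.

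The carrier transcripts that changed with JG342 included those for adenine nucleotides, citrate and dicarboxylates. SLC25A6 rose, and SLC25A5, SLC25A1 and SLC25A10 fell, at a limma adjusted p under 0.05. In all, 1 was higher and 4 were lower of 39 fitted members, or 12.8%, against 18.4% of all 12042 fitted genes that passed in either direction (10.8% higher and 7.62% lower). The difference between these shares was not tested. The median log2 fold change of the 39 members was −0.10, against 0.03 over all fitted genes, and their median absolute log2 fold change was 0.12, against 0.22. All 39 members had 95% intervals between −1 and 1 on the log2(TPM + 1) scale. Adding the replicate number as a block gave 3 higher and 4 lower members, against 34.9% of all fitted genes (19.2% higher and 15.7% lower). The block joined with median scaling gave 1 higher and 7 lower members, against 33.1% (13.9% higher and 19.2% lower).

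**Figure D1:**
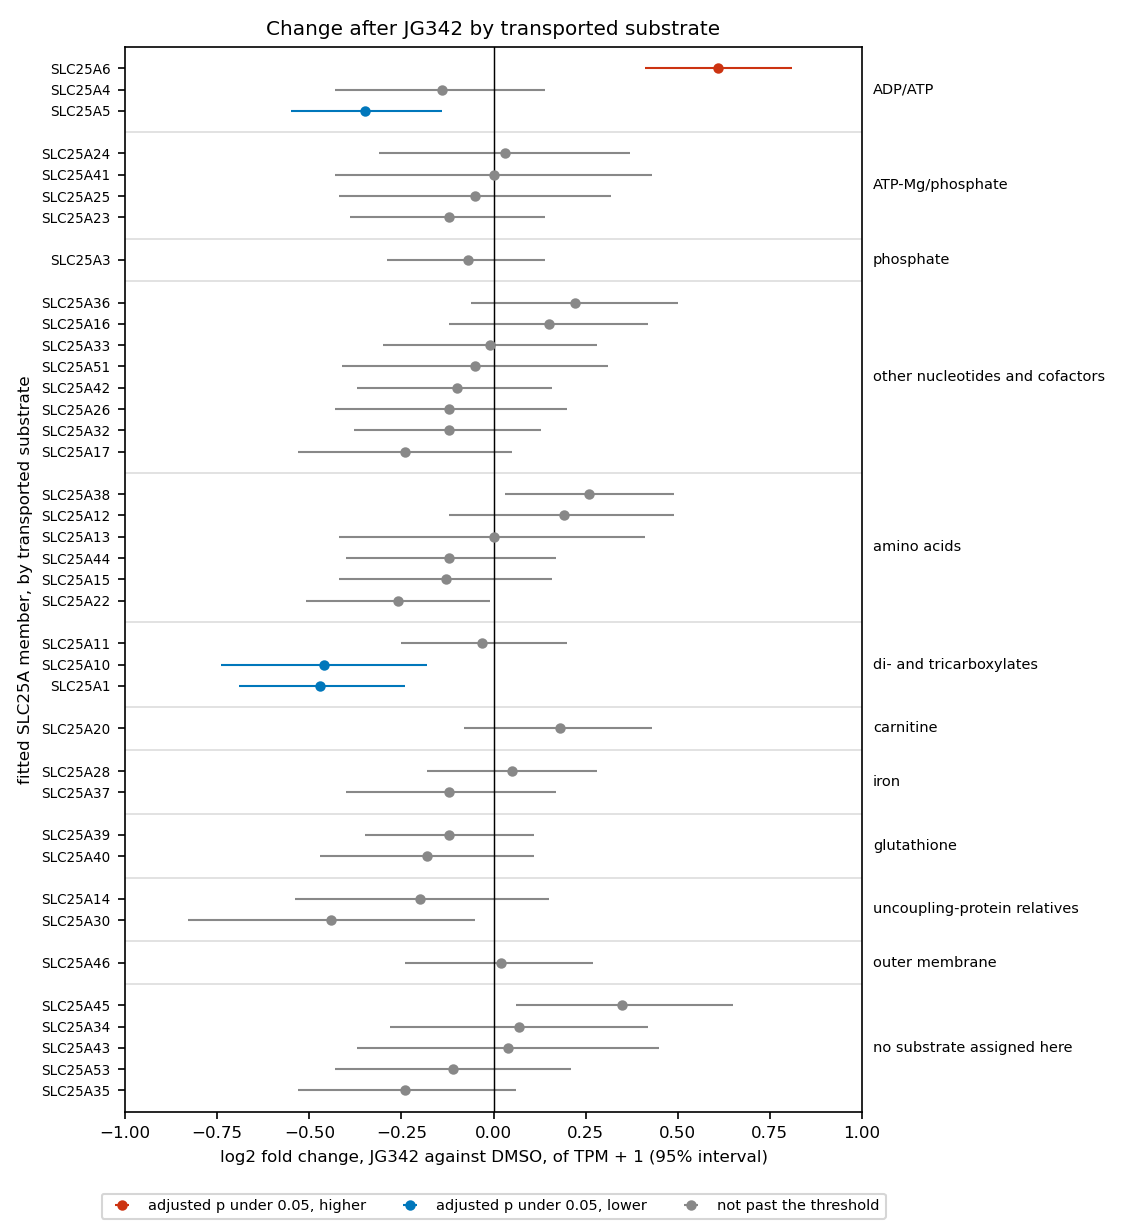
Log2 fold change of TPM + 1 after JG342 for 38 fitted members (x axis), grouped by transported substrate (right), with limma's 95% intervals as horizontal lines. SLC25A6 at 0.61 is the red point, and SLC25A1, SLC25A10 and SLC25A5, from −0.47 to −0.35, are blue.

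Levels of the family spanned several orders of magnitude. The 5 members with a mean of at least 100 TPM were SLC25A5, SLC25A6, SLC25A3, SLC25A39 and SLC25A20. A further 27 lay between 10 and 100 TPM, 7 between 1 and 10 TPM and 6 under 1 TPM. The lowest fitted member was SLC25A41, at a mean of 2.15 TPM, and the highest one left out was SLC25A52, at 0.838 TPM. A different set of 5 takes the ADP/ATP carrier SLC25A4 (mean 44.13 TPM) in place of SLC25A20. This set, SLC25A3, SLC25A4, SLC25A5, SLC25A6 and SLC25A39, held 61.6% and 62.7% of the family's summed TPM with DMSO (replicate 1, then 2, here and in all that follows). With JG342 it held 63.8% and 63.0%. The whole family summed to 2981.0 and 3099.7 TPM with DMSO and to 3001.5 and 2883.5 TPM with JG342. These ranges overlap (exact two-sided permutation p = 0.667; the smallest that 2 against 2 allows is 0.333).

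**Figure D2:**
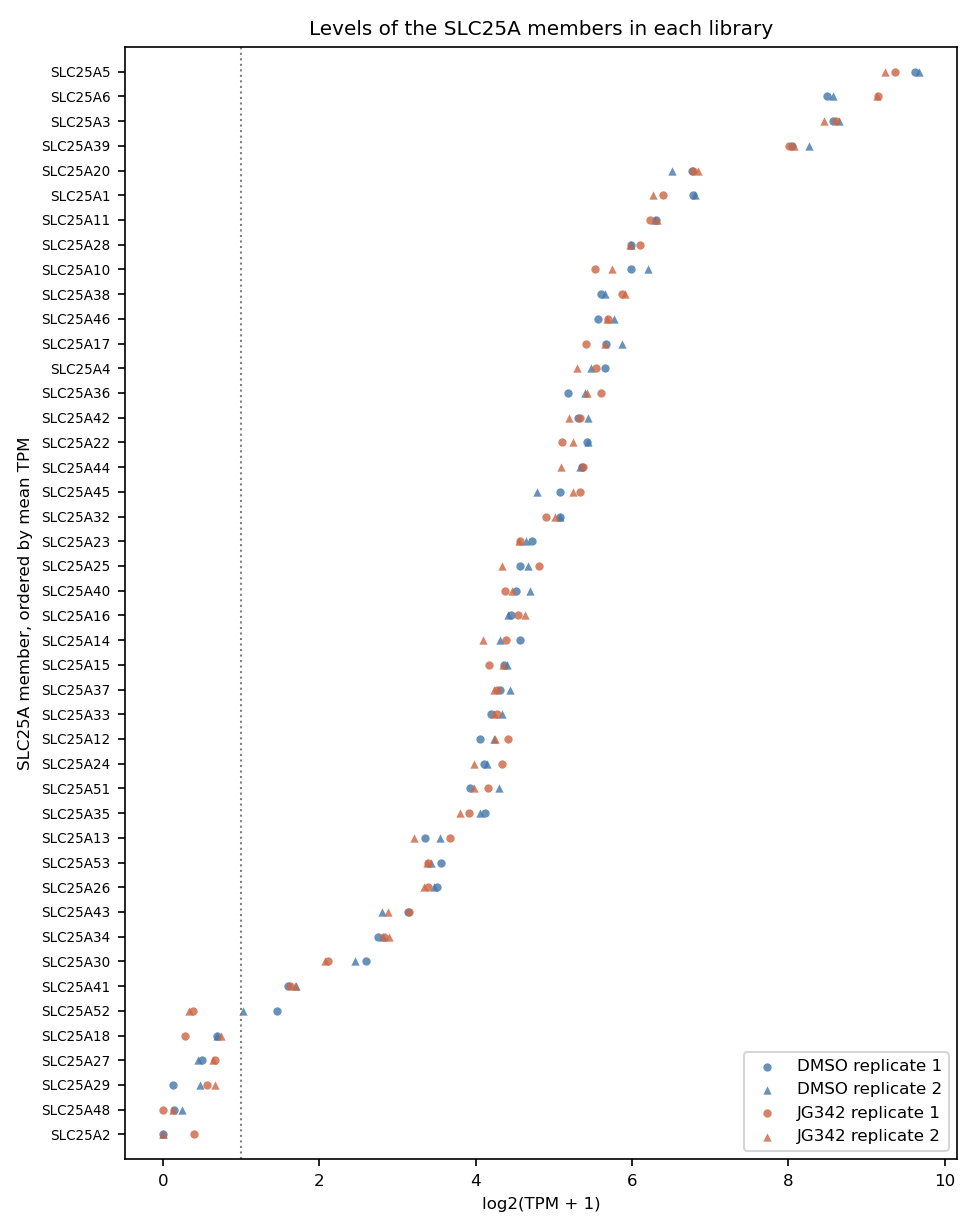
Level of 44 members in each of the 4 libraries, as log2(TPM + 1) on the x axis, ordered by mean TPM. Blue marks DMSO and orange JG342, circles replicate 1 and triangles replicate 2, and the dotted line marks 1 TPM. For SLC25A6 and SLC25A1 the colours separate clearly, whereas for SLC25A3 and SLC25A11 they mix.

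The ADP/ATP carriers exchange cytosolic ADP for ATP made in the matrix. SLC25A5 (NM_001152) encodes the form known from proliferating cells, SLC25A6 (NM_001636) a broadly expressed form, and SLC25A4 (NM_001151) the form known from heart and muscle. SLC25A6 stood at 360.46 and 377.91 TPM with DMSO and at 565.91 and 559.88 TPM with JG342. Both JG342 libraries lay well above both DMSO libraries, from 369.2 ± 12.3 (SD, n = 2) to 562.9 ± 4.26 TPM, or 0.61 ± 0.09 SE as log2 fold change (limma adjusted p 0.00279). SLC25A5 stood at 784.6 and 815.66 TPM with DMSO and at 656.4 and 602.12 TPM with JG342. Its JG342 libraries lay below its DMSO libraries, from 800.1 ± 22.0 (SD, n = 2) to 629.3 ± 38.4 TPM, or −0.35 ± 0.09 SE as log2 fold change (limma adjusted p 0.0311). SLC25A4 had 49.22 and 43.37 TPM with DMSO and 45.59 and 38.33 TPM with JG342, overlapping ranges with a log2 fold change of −0.14 (95% interval −0.43 to 0.14).

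The summed TPM of SLC25A4, SLC25A5 and SLC25A6 was 1194.3 and 1236.9 with DMSO and 1267.9 and 1200.3 with JG342, and these ranges overlap (exact two-sided permutation p = 0.667). SLC25A6 made up 30.2% and 30.6% of that sum with DMSO and 44.6% and 46.6% with JG342. SLC25A5 made up 65.7% and 65.9% with DMSO and 51.8% and 50.2% with JG342. The ratio of SLC25A6 to SLC25A5 was 0.459 and 0.463 with DMSO and 0.862 and 0.930 with JG342. The DMSO and JG342 libraries did not overlap in these shares or in the ratio, for which 2 against 2 allows no exact permutation p under 0.333. The shares were computed after the values of both genes had been seen.

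The call for SLC25A6 held in each of 10 other settings and each of the 4 fits that left out a library. That for SLC25A5 was lost without DMSO replicate 1, DMSO replicate 2 or JG342 replicate 2 (limma adjusted p 0.120, 0.198 and 0.121), without the filter on low values (0.0833) and without the variance trend (0.102). SLC25A5 and SLC25A6 transcripts aligned at 79.7% identity over 68.3% of SLC25A5. The closest pseudogene transcript to SLC25A5 was SLC25A5P5, at 93.6% identity over 70.4% of its length, and to SLC25A6 it was SLC25A6P2, at 89.3% over 42.9%. Whether reads were divided among these copies differently in the treatments was not tested.

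**Figure D3:**
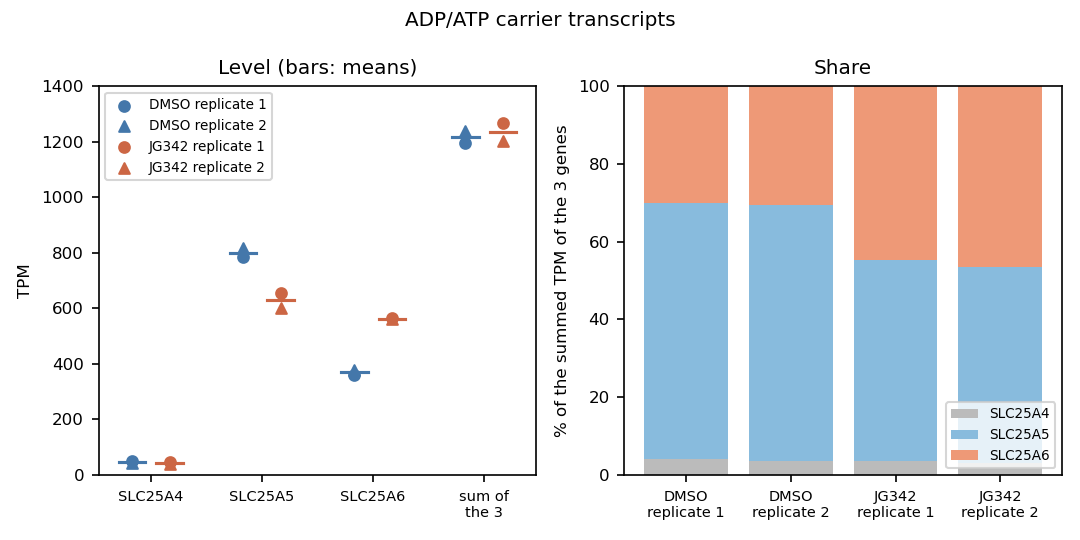
Left, TPM of the ADP/ATP carrier genes and of their sum in each library, with horizontal bars for the mean of each treatment (n = 2). Right, the share of each gene in that sum per library, where the SLC25A6 share is 30.2% and 30.6% with DMSO and 44.6% and 46.6% with JG342.

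The 250 bases before the annotated start of the ADP/ATP carrier genes that moved apart are shown to let their sequences be compared, from RefSeq's GRCh38.p14 promoter table, 5′ to 3′ on the gene's strand. Capitals mark CCAAT (the CCAAT box), GGGCGG (the GC box) and TATAAA (the TATA box) on either strand. The SLC25A6 window is chrX:1392114-1392363, minus strand, and the SLC25A5 window is chrX:119468194-119468443, plus strand.
SLC25A6: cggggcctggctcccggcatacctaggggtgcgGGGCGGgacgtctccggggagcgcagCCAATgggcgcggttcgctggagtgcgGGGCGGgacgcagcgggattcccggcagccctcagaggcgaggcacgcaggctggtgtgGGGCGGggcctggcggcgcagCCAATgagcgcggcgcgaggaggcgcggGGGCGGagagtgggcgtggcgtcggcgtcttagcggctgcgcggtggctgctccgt
SLC25A5: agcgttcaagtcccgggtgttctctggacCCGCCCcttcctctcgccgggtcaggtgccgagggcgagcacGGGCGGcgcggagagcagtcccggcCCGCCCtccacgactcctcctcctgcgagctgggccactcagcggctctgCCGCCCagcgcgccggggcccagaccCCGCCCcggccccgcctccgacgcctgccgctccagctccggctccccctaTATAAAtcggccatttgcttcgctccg

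The SLC25A6 window held CCAAT at 191 and 84 bases before the start and GGGCGG at 4 places, and no TATAAA. The SLC25A5 window held TATAAA at 27 bases before the start and GGGCGG at 5 places, and no CCAAT. Of the table's 27195 genes, 37.0% had CCAAT in such a window, 46.3% GGGCGG and 13.1% TATAAA. Among the 37 carriers with a window, CCAAT was found in 19, GGGCGG in 30 and TATAAA in 3. TGATGNAA, the core of the element bound by ATF4 with C/EBP partners, CACGTG (the E-box) and GAANNTTC (a heat shock element core) were searched on both strands too. None of these 3 occurred in the windows of SLC25A1, SLC25A5 or SLC25A6, and no window of SLC25A10 is described here. The 3 motifs occurred in 3.88%, 7.74% and 7.06% of all genes and in 1, 7 and 3 of the 37 carriers. These are matches of letters and not measured sites.

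The carriers of di- and tricarboxylates link the citric acid cycle to the cytosol. Of the 3 fitted ones 2 were lower at a limma adjusted p under 0.05, against 7.62% of all fitted genes. A group of 3 is too small to be read as a class. SLC25A1 (NM_001256534), the citrate carrier, exports the citrate from which cytosolic acetyl-CoA is made. It stood at 108.89 and 110.99 TPM with DMSO and at 82.92 and 75.83 TPM with JG342. Both JG342 values lay below both DMSO values, from 109.9 ± 1.48 (SD, n = 2) to 79.38 ± 5.01 TPM, or −0.47 ± 0.10 SE as log2 fold change (limma adjusted p 0.0134). SLC25A10 (NM_001270888), the dicarboxylate carrier, exchanges malate or succinate for phosphate. It had 62.36 and 72.47 TPM with DMSO and 44.94 and 52.78 TPM with JG342. The ranges did not overlap, and the means fell from 67.41 ± 7.15 (SD, n = 2) to 48.86 ± 5.54 TPM, or −0.46 ± 0.12 SE as log2 fold change (limma adjusted p 0.0348).

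SLC25A11 (NM_001165417), the oxoglutarate/malate carrier of the malate-aspartate shuttle, had 78.42 and 77.48 TPM with DMSO and 74.16 and 79.08 TPM with JG342. Its ranges overlapped, with a log2 fold change of −0.03 (95% interval −0.25 to 0.20). The call for SLC25A1 was lost without DMSO replicate 1, DMSO replicate 2 or JG342 replicate 2 (limma adjusted p 0.0658, 0.0924 and 0.0531) and without the variance trend (0.0504). The call for SLC25A10 was lost without DMSO replicate 1, DMSO replicate 2 or JG342 replicate 1 (limma adjusted p 0.0582, 0.225 and 0.140), without the filter on low values (0.105) and without the variance trend (0.0827). SLC25A10 shares 97.8% identity over 64.2% of its transcript with a further coding gene of GENCODE release 29, so its reads may be split. The closest pseudogene transcript to SLC25A1 was SLC25A1P1, at 90.3% identity over 56.4% of the SLC25A1 transcript. Whether reads were divided among these copies differently in the treatments was not tested.

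The window before the start of SLC25A1 is shown for comparison with those of the ADP/ATP carriers, from the same RefSeq GRCh38.p14 table and with the same motifs in capitals. It is chr22:19178737-19178986, minus strand.
SLC25A1: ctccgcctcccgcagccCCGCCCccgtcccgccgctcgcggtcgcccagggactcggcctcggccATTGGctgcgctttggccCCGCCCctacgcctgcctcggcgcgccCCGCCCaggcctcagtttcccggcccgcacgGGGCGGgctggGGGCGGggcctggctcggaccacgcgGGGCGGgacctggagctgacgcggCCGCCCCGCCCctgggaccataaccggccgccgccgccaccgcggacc

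The SLC25A1 window held GGGCGG at 8 places, of which a pair overlap, and CCAAT on the opposite strand at 185 bases before the start. GC made up 81.6% of the SLC25A1 window, against 73.6% for SLC25A5, 76.8% for SLC25A6 and a median of 58.4% over all windows.

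The 8 carriers of other nucleotides and cofactors described here did not pass and had log2 fold changes from −0.24 to 0.22. The pyrimidine nucleotide carriers SLC25A36 and SLC25A33 stood at 0.22 and −0.01, and the folate and FAD carrier SLC25A32 at −0.12. The SLC25A32 transcript matches a further coding gene of GENCODE release 29 at 100% identity over 88.1% of its length, and SLC25A33 a pseudogene at 99.3% identity over 24.9%, so reads of both may be split. SLC25A42, which imports coenzyme A, was at −0.10, and its relative SLC25A16 at 0.15. SLC25A26, which brings S-adenosylmethionine into the matrix, was at −0.12. SLC25A17 lies in the peroxisome membrane and had 49.86 and 57.78 TPM with DMSO and 41.64 and 49.34 TPM with JG342. Its log2 fold change was −0.24 (limma adjusted p 0.222, 0.0665 with the replicate block and 0.0243 with the block and median scaling).

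SLC25A51 (NM_033412) and SLC25A52 (NM_001034172) are near-identical NAD carriers. SLC25A51 had 14.28 and 18.65 TPM with DMSO and 16.88 and 14.72 TPM with JG342, overlapping ranges at a log2 fold change of −0.05. SLC25A52 had 1.75 and 1.04 TPM with DMSO and 0.30 and 0.26 TPM with JG342, non-overlapping ranges below the limit for testing. The transcripts match at 96.8% identity over 94.2% of SLC25A51, so the division between them is uncertain. Their sum was 16.03 and 19.69 TPM with DMSO and 17.18 and 14.98 TPM with JG342, and these ranges overlap.

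Amino acid carriers showed no member past the threshold among the 6 fitted. SLC25A38 (NM_001354798), which imports glycine for haem synthesis, came nearest. It had 47.45 and 49.43 TPM with DMSO and 57.42 and 59.05 TPM with JG342. The ranges did not overlap, and the log2 fold change was 0.26 ± 0.10 SE (limma adjusted p 0.108; 0.0389 with the replicate block, 0.103 with the block and median scaling). SLC25A22, a glutamate carrier, had 42.07 and 42.5 TPM with DMSO and 33.31 and 36.99 TPM with JG342. Its log2 fold change was −0.26 ± 0.11 SE (limma adjusted p 0.136, 0.0552 with the replicate block and 0.0276 with the block and median scaling).

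The aspartate/glutamate carriers SLC25A12 and SLC25A13, the other carriers of the malate-aspartate shuttle, had log2 fold changes of 0.19 (95% interval −0.12 to 0.49) and 0.00 (−0.42 to 0.41). The ornithine carrier SLC25A15 was at −0.13 and the branched-chain amino acid carrier SLC25A44 at −0.12. SLC25A18, SLC25A29 and SLC25A2 stayed under 1 TPM in every library, and SLC25A2 was listed at 0 in all but JG342 replicate 1, where it had 0.32 TPM.

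The most abundant carriers outside the ADP/ATP group did not pass. SLC25A3 (NM_002635), which imports the phosphate used to make ATP, had 379.45 and 400.32 TPM with DMSO and 391.0 and 350.33 TPM with JG342. The ranges overlapped, and the log2 fold change was −0.07 ± 0.10 SE (limma adjusted p 0.628; 95% interval −0.29 to 0.14). SLC25A39 (NM_001143780), needed for glutathione import, had 263.63 and 307.23 TPM with DMSO and 256.83 and 267.28 TPM with JG342. It stood at −0.12 ± 0.10 SE (limma adjusted p 0.451), with overlapping ranges, and its lower paralog SLC25A40 at −0.18. SLC25A20 (NM_000387), which brings acylcarnitines in for fatty acid oxidation, had 107.62 and 90.36 TPM with DMSO and 108.84 and 114.19 TPM with JG342. The JG342 values were higher by a small margin, at 0.18 ± 0.11 SE (limma adjusted p 0.307).

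The ATP-Mg/phosphate carriers SLC25A23, SLC25A24, SLC25A25 and SLC25A41, which exchange adenine nucleotides for phosphate across the inner membrane, had log2 fold changes from −0.12 to 0.03, with no call. The iron importers SLC25A28 and SLC25A37 stood at 0.05 and −0.12. SLC25A46 of the outer membrane, known for its part in mitochondrial dynamics, was at 0.02. The fitted relatives of the uncoupling proteins, SLC25A14 and SLC25A30, were lower in mean and did not pass. SLC25A30 (NM_001010875) had 5.05 and 4.5 TPM with DMSO and 3.31 and 3.21 TPM with JG342, without overlap. Its log2 fold change was −0.44 ± 0.17 SE (limma adjusted p 0.108, 0.0524 with the replicate block and 0.0421 with the block and median scaling). SLC25A14 was at −0.20 with overlapping ranges.

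Of the 6 carriers without an assigned substrate here, 5 were fitted and none passed. SLC25A45 (NM_001077241) had 32.93 and 26.69 TPM with DMSO and 39.38 and 36.92 TPM with JG342. Both JG342 values were above both DMSO values, with a log2 difference of 0.35 ± 0.13 SE (limma adjusted p 0.0938; 0.00923 with the replicate block, 0.0600 with the block and median scaling). SLC25A34, SLC25A43, SLC25A53 and SLC25A35 ranged from −0.24 to 0.07. SLC25A48 had 0.1 and 0.18 TPM with DMSO and 0 and 0.09 TPM with JG342.

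Non-overlap between treatments held for 8 fitted members that were higher and 15 that were lower with JG342. Over all fitted genes it held for 34.0% in the higher and 28.2% in the lower direction, 62.1% in all. Both pairs of same-numbered libraries gave 1 direction for 27 of the 39 members (69.2%), against 75.5% of all fitted genes. The median log2 fold change of the members was 0.01 in pair 1 and −0.17 in pair 2, so the median was below 0 in pair 2 and not in pair 1. For the 4 members named as changed the treatments did not overlap, so both pairs had to share a direction, which adds no support. In pairs 1 and 2 SLC25A6 stood at 0.65 and 0.57 and SLC25A1 at −0.39 and −0.54. SLC25A10 stood at −0.46 and −0.45 and SLC25A5 at −0.26 and −0.44.

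**Figure D4:**
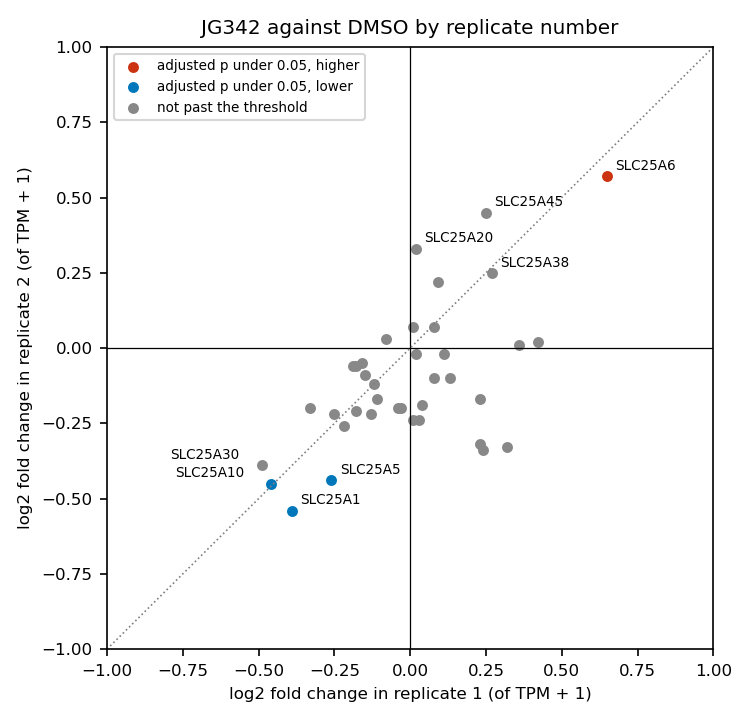
Log2 fold change of TPM + 1 in the libraries numbered 1 (x axis) and numbered 2 (y axis), 1 point for each of 38 fitted members, with the dotted line where both are equal. The 4 called members lie in the lower left and upper right of the plot, and a group of uncalled members lies in the lower right, where the pairs disagree in sign.

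Neighbouring genes of mitochondrial transport were read from a list of 49 fitted genes, of which 3 were higher and 2 lower at a limma adjusted p under 0.05, or 10.2%, against 18.4% of all fitted genes. The replicate block called 19 of the 49, 6 of them higher, against 34.9% of all fitted genes, and 22 with median scaling added, against 33.1%. For these 49 genes, fits without a library, the filter on low values or the variance trend were not examined. Of the family members under other symbols, UCP2, UCP3, MTCH1 and MTCH2, none passed without the block. MTCH2, an insertase of the outer membrane, stood at −0.27 (limma adjusted p 0.140; 0.0232 with the block). UCP2, an uncoupling protein, had the highest level of these, at 141.45 and 165.55 TPM with DMSO and 172.89 and 171.62 TPM with JG342. Of the 10 genes of carrier import and insertion, 1 passed without the block, or 10.0%, against 18.4% of all fitted genes. The block called 3 of the 10, against 34.9% of all fitted genes. The gene that passed was TIMM22, which encodes the channel of the carrier translocase. It fell from 33.58 and 38.04 to 25.87 and 27.31 TPM (log2 fold change −0.41 ± 0.12 SE, limma adjusted p 0.0424). TOMM70, the import receptor for carriers, stood at −0.19 (limma adjusted p 0.249, 0.124 with the block and 0.0348 with the block and median scaling). The small Tim proteins TIMM13 and TIMM8B, which escort precursors between the membranes, stood at −0.26 and −0.28 (limma adjusted p 0.0997 and 0.120; 0.0116 and 0.00596 with the block). TIMM8A stood at −0.29 (limma adjusted p 0.130, 0.0633 with the block and 0.0267 with the block and median scaling). The others did not pass, with TIMM29 at 0.12 and TIMM9, TIMM10B, TIMM10 and AGK from −0.08 to −0.01.

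The mitochondrial pyruvate carrier belongs to another family and is made of both MPC1 and MPC2. MPC1 rose from 120.87 and 121.16 to 164.42 and 211.72 TPM (log2 fold change 0.62 ± 0.12 SE, limma adjusted p 0.0108). MPC2 fell from 105.3 and 111.13 to 82.98 and 85.37 TPM (log2 fold change −0.36 ± 0.10 SE, limma adjusted p 0.0330). Among the other 16 fitted transporters of the inner membrane none passed without the block, against 18.4% of all fitted genes. With the block 5 of the 16 passed, against 34.9% of all fitted genes. SMDT1, a subunit of the calcium uniporter, stood at 0.44 (limma adjusted p 0.0508, 0.000357 with the block and 0.0185 with the block and median scaling). SLC30A9 stood at 0.32 (limma adjusted p 0.122, 0.0185 with the block and 0.0811 with the block and median scaling, where it did not pass). The serine carrier SFXN1 stood at −0.32 (limma adjusted p 0.0750; 0.00475 with the block), LETM1 at −0.35 (0.0618; 0.00704) and the sodium/calcium exchanger SLC8B1 at −0.52 (0.0811; 0.0221).

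Of the 17 enzymes that work on carried substrates, 2 were higher (GOT1 and SHMT2) and 0 lower at a limma adjusted p under 0.05 without the replicate block, or 11.8%, against 18.4% of all fitted genes. The block called 8 of the 17, 3 of them higher, against 34.9% of all fitted genes. Those it added are ACLY, CS, OAT, ALAS1 and GOT2, which were lower, and CPT2, which was higher. CPT2 did not pass when median scaling was added to the block (limma adjusted p 0.0747). GOT1, the cytosolic aspartate aminotransferase of the malate-aspartate shuttle, went from 76.52 and 76.13 to 173.67 and 169.49 TPM (log2 fold change 1.16 ± 0.09 SE, limma adjusted p 0.000171). The shuttle's carriers SLC25A11, SLC25A12 and SLC25A13 had the values of −0.03, 0.19 and 0.00 given above. SHMT2, which makes glycine and one-carbon units from serine in the matrix, went from 162.75 and 256.13 to 500.63 and 627.65 TPM (log2 fold change 1.45 ± 0.19 SE, limma adjusted p 0.00209). ACLY, which splits the citrate that SLC25A1 exports, stood at −0.30 and citrate synthase (CS) at −0.30 (limma adjusted p 0.0756 and 0.0605; 0.00537 and 0.00225 with the block).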

How the data were processed

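RNA of MM.1S cells was sequenced on a BGISEQ instrument by a service provider, per the labels. The submitters' processing notes name HISAT2 2.0.4, Bowtie2 2.2.5 and RSEM 1.2.12, without their roles. The genome build, annotation and filters are not given in the sources used here. The authors deposited 1 value per gene and library without stating the unit, which was taken as TPM because the libraries sum to nearly the same total, 994463 to 994718.

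Values were transformed to log2(TPM + 1), which understates the change of low genes. Genes whose mean reached 1 TPM, 12042 in all, were fitted with limma 3.58.1 in R 4.3.3 (eBayes with a mean-variance trend, treatment as the only term). P-values were two-sided and Benjamini-Hochberg adjusted over all fitted genes, with a threshold of 0.05, and the 95% intervals are limma's. Each gene's spread rests on 2 residual degrees of freedom and a prior worth 6.89. Groups were taken from the sample titles. Libraries with the same number have descriptions with a common prefix, and their deviations from the treatment means correlated across genes (Pearson r 0.27, Spearman rho 0.30), so a fit with the replicate number as a block was run. It had 1 residual degree of freedom and an infinite prior, with which genes pass readily, and it was also run with median scaling (prior 7.49).

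Values in every library are given for members past the threshold, for the 6 highest in mean TPM and for the 3 next in adjusted p; a few others were added after their values were seen. The members, substrate groups and lists were chosen with earlier results of these data known. Alternatives covered the pseudocount, the filter, scaling, the replicate block, variance moderation and leaving out each library. Similar transcripts were searched with BLAST 2.17.0 in GENCODE release 29. Those with at least 95% identity over at least 20% of the member's transcript counted as near-identical. For some members the closest matches below these limits are given too. The test was tried first on simulated data, in which same-numbered libraries did not share deviations as they do here. SLC25A21, SLC25A31 and SLC25A47 were not analysed here, and 1 member that enters the counts and medians is not reported here.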

Additional observations from a re-analysis of the deposited data

Results flagged for a closer look

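Among the 6 carriers left out of the test for their low values, 2 had both JG342 libraries above both DMSO libraries. SLC25A27, a relative of the uncoupling proteins, had 0.42 and 0.36 TPM with DMSO and 0.58 and 0.56 TPM with JG342, a mean of 0.570 TPM. SLC25A29, a carrier of basic amino acids, had 0.09 and 0.39 TPM with DMSO and 0.48 and 0.58 TPM with JG342, a mean of 0.530 TPM. In the opposite direction, SLC25A52, at 1.75 and 1.04 TPM with DMSO and 0.30 and 0.26 TPM with JG342, and SLC25A48, at 0.1 and 0.18 TPM with DMSO and 0 and 0.09 TPM with JG342, had both JG342 libraries below both DMSO libraries. None of these 4 differences was tested. For comparison, the treatments were completely separated in 62.1% of the 12042 genes that entered the fit, counting both directions. No such share was computed for genes with a mean under 1 TPM, so 4 of these 6 is not shown to be unusual.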

How the results depend on the processing

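SLC25A6 passed in every setting run. The replicate block let 4207 genes pass (3985 with median scaling too), 3 carriers were higher, and 7 were lower when the block was joined with median scaling; the pairing changed no call among the 4 carriers named as changed. Without the filter 828 genes passed and 2 carriers were lower, and without the variance trend 1 was lower. Median scaling turned the balance of all genes from 1304 higher and 917 lower to 966 and 1200, and quantile normalization to 1016 and 984; the same 5 carriers passed. The log2 ratio of the family's summed TPM, −0.05, was −0.12 after median scaling and −0.10 without SLC25A5 and SLC25A6. Leaving out 1 library at a time gave 767 to 1825 genes, 1 higher carrier each time, 1 to 3 lower carriers and a family median of −0.13 to −0.03. SLC25A3 ran from −0.15 to 0.0046 and changed sign without JG342 replicate 2 (limma adjusted p 0.986). The lone library of a reduced group is assumed to vary like the other group. Read depth is unknown.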
